A study of Rattus norvegicus with 6 samples.

Results

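The JAK-STAT pathway genes examined were 3 STAT factors (Stat2, Stat3 and Stat6), 2 JAK kinases (Jak1 and Jak2) and 4 genes of the SOCS family (Socs1, Socs2, Socs3 and Cish). They were taken by gene symbol, which gave 9 of the 21857 symbols counted in each library, and all 9 passed the filter on low counts. RNA-seq was done on NRCFs, neonatal cardiac fibroblasts cultured from the hearts of Sprague-Dawley rats no older than 3 days, which the sample labels list under the strain "Noway". The sample labels give only a genotype, WT for the 3 libraries called Vector here and FTO overexpression for the other 3. By the study's methods, controls received an empty pcDNA 3.1 plasmid and the others the same plasmid with rat FTO, an enzyme that removes N6-methyladenosine (m6A) from RNA. The study reports checks of the transfection by qRT-PCR and by the level of FTO protein and, by dot blot, less m6A with FTO. The labels themselves do not mention transfection, and Fto in these counts, given below, did not bear out the FTO label. The labels do not say whether the replicates were separate cultures or litters, so p-values measure only the spread between these libraries.

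JAK kinases sit on the inner side of cytokine, interferon and growth hormone receptors. When a ligand binds, they phosphorylate the receptor and then STAT proteins, which pair, enter the nucleus and switch on genes. Among these genes are those of the SOCS family, whose proteins bind the receptor or the kinase and damp the signal, so that the family works as negative feedback. In cardiac fibroblasts the pathway is best known for carrying the signals of the interleukin-6 family and of interferons. STAT dimers bind a palindromic DNA element called GAS, and a complex that contains STAT2 and IRF9 binds the interferon-stimulated response element (ISRE).

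The libraries held 13178952 to 17857999 counts. Values are counts scaled to a common library total by TMM (CPM), given with the SD of 3 libraries, and fold changes are those of the FTO-labelled libraries over Vector with a standard error (SE) on the log2 scale. Fto itself lay at 88.3 ± 1.20 CPM in Vector and 92.3 ± 1.32 CPM in the FTO-labelled libraries. The groups did not overlap, as in 70.3% of all tested genes. Its log2 fold change of 0.06 (SE 0.0468, adjusted p 0.239 in the edgeR quasi-likelihood test) did not pass. Directions below follow the labels, since no rise of Fto passed the test (fold change between 0.976 and 1.12). Of 12941 genes tested, 65.9% passed an adjusted p under 0.05, 33.2% with FTO-labelled libraries higher and 32.8% with them lower. At a log2 fold change of at least 1 in either direction with an unadjusted p under 0.05, 19.6% passed. Fibroblast markers were present, at a summed 14619 to 14709 CPM in Vector and 11988 to 12362 CPM in the FTO-labelled libraries, but 4 of 8 were higher and 4 lower, with Dcn (decorin) going from 47.0 to 5611 CPM and Vim (vimentin) from 3161 to 1250 CPM. Markers of other cells moved too. Of 10 macrophage markers, 9 were lower and 1 (Adgre1) higher, with sums of 1684 to 1745 against 243 to 275 CPM and C1qc at 1 or 2 counts in each FTO-labelled library. Of 8 cardiomyocyte markers, 7 were higher and 1 lower, with sums of 1463 to 1492 against 2189 to 2224 CPM. Of the 4 endothelial markers tested, out of 7, 3 were higher and 0 lower, with sums of 19.3 to 19.8 against 43.3 to 45.0 CPM and Cldn5 at 0 throughout. The 8 lymphocyte markers had at most 3 counts in any library, and 4 of them, Cd3e and Cd3d included, had 0. The part of these other cells in the results was not tested, and in bulk RNA fewer cells of a type and less RNA per cell cannot be told apart.

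The promoter DNA of these genes is shown first because the SOCS genes are known targets of the STATs. RefSeq promoter windows (build GRCr8, 250 bases before to 50 after the start site) were matched for 7 of the 9 genes, all but Jak1 and Socs2. They were searched on both strands for GAS letters (TTCNNNGAA), for the same half-sites with a 4-base spacer (TTCNNNNGAA), the arrangement that STAT6 favours, and for the repeated core of the ISRE (GAAANNGAAA). GAS letters occurred in 8.87% of 33469 windows, the 4-base form in 7.28% and the ISRE core in 3.92%. The Cish window held 4 GAS matches, and 2 windows of all 33469 held that many. The Socs1 window held 1 GAS match and 2 ISRE cores, which overlap each other by 4 bases. A GAS match together with an ISRE core was found in 0.514% of windows. The windows of Stat2, Stat3, Stat6, Jak2 and Socs3 held none of the 3 motifs, which says only that these letters are not in those windows. The Socs3 window follows a transcript whose start lies 1207 bases inside the annotated gene, and those of Stat2 and Stat3 start 65 and 154 bases inside. The 250 bases before the start of Socs1 (chr10:5389324-5389573, plus strand) and Cish (chr8:116850719-116850968, plus strand) read as follows, with the matches in capitals.
Socs1: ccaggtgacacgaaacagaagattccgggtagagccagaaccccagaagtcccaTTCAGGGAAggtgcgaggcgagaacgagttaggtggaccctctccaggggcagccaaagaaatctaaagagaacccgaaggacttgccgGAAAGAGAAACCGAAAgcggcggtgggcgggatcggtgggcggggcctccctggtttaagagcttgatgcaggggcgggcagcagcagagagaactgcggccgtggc
Cish: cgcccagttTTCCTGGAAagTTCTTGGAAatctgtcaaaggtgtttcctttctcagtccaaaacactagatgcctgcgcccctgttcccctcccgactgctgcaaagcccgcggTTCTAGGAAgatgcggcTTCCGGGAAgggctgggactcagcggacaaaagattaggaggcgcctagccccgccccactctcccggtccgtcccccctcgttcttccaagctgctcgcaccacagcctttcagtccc

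In Cish the matches come in 2 close pairs, counted from the start site at -241 to -233 and -230 to -222, and at -136 to -128 and -119 to -111. In Socs1 the GAS match lies at -196 to -188 and the overlapping ISRE cores at -107 to -98 and -101 to -92. A match of letters is a description of the sequence, and binding was not measured.

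**Figure D1:**
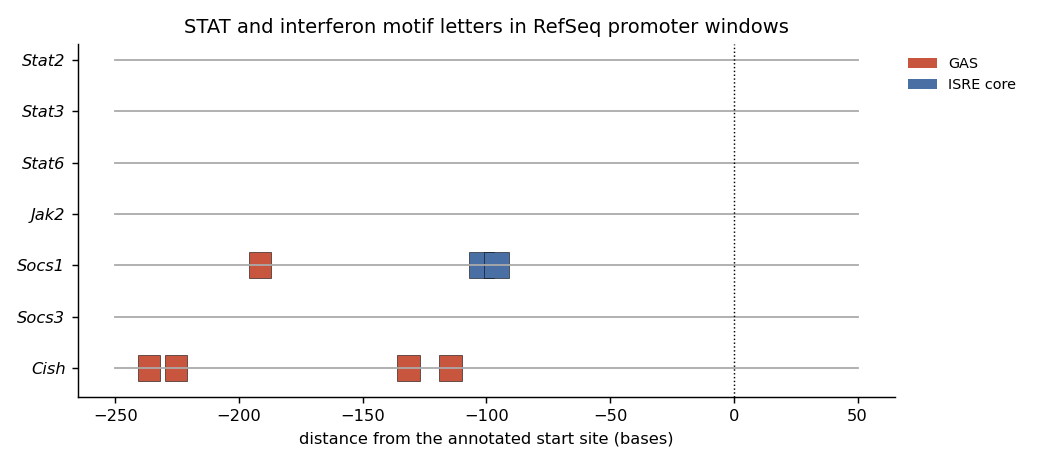
Positions of motif letters in the RefSeq promoter windows of the 7 genes that were matched, with the distance from the annotated start site in bases on the x axis. Boxes mark GAS letters (red) and ISRE cores (blue). Cish carries 4 GAS matches, Socs1 carries 1 GAS match and 2 overlapping ISRE cores, and the other 5 windows are empty.

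To see whether the pathway's own parts differed between the groups, the 9 genes were read from the comparison of all genes. In 7 of the 9 the 3 values of each group did not overlap, and 70.3% of all tested genes showed no overlap. Of the 9, 7 passed the adjusted threshold against the 65.9% of all genes named above, 6 of them higher (33.2% of all genes) and 1 lower (32.8%). At the fold threshold 5 of the 9 passed, against 19.6%. The median log2 fold change of the 9 was 1.15, and that of all tested genes was 0.00. The 9 were chosen with earlier results of these data known, so these contrasts with all genes are a description and not a test. Jak2, Socs3, Stat2, Cish, Socs1 and Stat3 rose, Socs2 fell, and Jak1 and Stat6 did not pass.

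**Figure D2:**
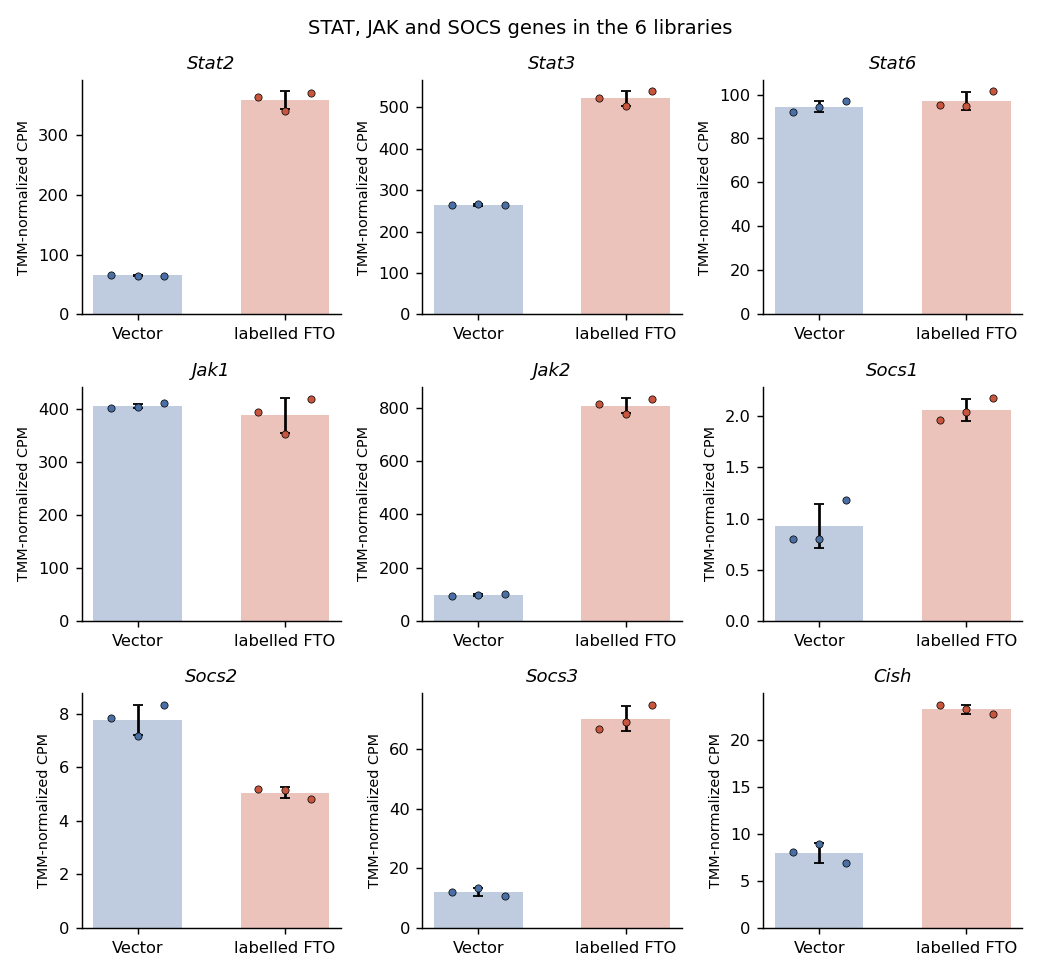
CPM of the 9 genes on linear axes from 0, each with its own scale, in the Vector group (blue) and the FTO-labelled libraries (red). Bars are means, error bars the SD of 3 libraries and points single libraries. The groups are apart in 7 panels, with Socs2 the one that is lower on the right, and they overlap for Stat6 and Jak1.

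Among the STAT factors, Stat2 rose most. STAT2 works with IRF9 in type I and III interferon signalling. Stat2 lay at 66.1, 64.5 and 64.5 CPM in the Vector libraries and at 363, 341 and 370 CPM in the FTO-labelled libraries. Each FTO-labelled library was thus far above each Vector library. Its rise was 5.51-fold (95% confidence interval 5.13 to 5.91), a log2 fold change of 2.46 (SE 0.0478, edgeR adjusted p 9.05e-16). Of the 12941 genes, 445 had a higher fold change.

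Stat3, the factor downstream of the interleukin-6 family that drives acute-phase genes, lay at 263, 266 and 264 CPM in Vector and at 522, 504 and 540 CPM in the FTO-labelled libraries. The groups did not overlap, and the spread within each was small beside the gap. Stat3 rose 1.97-fold (interval 1.86 to 2.10, log2 0.98, SE 0.0407, edgeR adjusted p 9.16e-12), just under the 2-fold line of the fold threshold.

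Stat6, the factor of interleukin-4 and interleukin-13 signalling, lay at 92.2, 94.3 and 97.0 CPM in Vector and at 95.1, 94.6 and 102 CPM in the FTO-labelled libraries. These values overlap. Stat6 did not pass, at 0.04 on the log2 scale (SE 0.05, edgeR adjusted p 0.489), and the interval of its fold change ran from 0.955 to 1.11.

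The kinases differed. Jak2, which serves receptors of interferon gamma, growth hormone, erythropoietin and the granulocyte-macrophage factor, lay at 94.4, 98.4 and 102 CPM in Vector and at 814, 777 and 834 CPM in the FTO-labelled libraries. No gene of the 9 had a larger fold change, and the groups were widely apart. Jak2 rose 8.24-fold (interval 7.68 to 8.83), a log2 fold change of 3.04 (SE 0.0471, edgeR adjusted p 6.93e-17). Among all tested genes, 315 or 2.43% had a higher fold change.

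Jak1, which pairs with the interferon and interleukin-6 family receptors, lay at 402, 404 and 410 CPM in Vector and at 393, 352 and 418 CPM in the FTO-labelled libraries. The highest and the lowest of the 6 values both came from FTO-labelled libraries. Its log2 fold change of -0.06 (SE 0.0532, edgeR adjusted p 0.31) did not pass, with the fold change between 0.885 and 1.04. The value depended on single libraries. Without FTO replicate 3, Jak1 changed by -0.12 and passed (adjusted p 0.0185), and without FTO replicate 2 it was at 0.0039 (0.935), which are the ends of its range over 13 alternatives.

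The 5 STAT and JAK genes shared an order within the FTO-labelled libraries, replicate 2 being the lowest and replicate 3 the highest in each. That order held in 24.3% of the 10042 genes with a mean of at least 100 counts. None of the 4 SOCS genes showed it.

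Among the feedback genes, Socs3 rose most. SOCS3 binds the gp130 receptor chain and JAK kinases and shuts down signals of the interleukin-6 family. It lay at 12.0, 13.3 and 10.7 CPM in Vector and at 66.7, 68.9 and 74.9 CPM in the FTO-labelled libraries. The lowest FTO-labelled library was well above the highest Vector library. Socs3 rose 5.86-fold (interval 5.18 to 6.63), a log2 fold change of 2.55 (SE 0.0833, edgeR adjusted p 4.64e-13).

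Cish, a STAT5 target whose product blocks STAT5 docking sites on receptors, lay at 8.12, 8.92 and 6.86 CPM in Vector and at 23.8, 23.3 and 22.8 CPM in the FTO-labelled libraries. The groups did not overlap, and the FTO-labelled libraries lay closer together than the Vector libraries. Between the groups Cish rose 2.92-fold (interval 2.50 to 3.40), a log2 fold change of 1.54 (SE 0.104, edgeR adjusted p 3.62e-09). Cish is the gene whose promoter, printed above, holds the 4 GAS matches.

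Socs1, an inhibitor of JAK kinases that limits interferon signalling, was counted least. It had 11, 12 and 17 counts in the Vector libraries (0.805, 0.805 and 1.18 CPM) and 28, 27 and 39 counts in the FTO-labelled libraries (1.96, 2.04 and 2.18 CPM). The groups did not overlap in CPM, but counting error alone is wide at this depth. The exact Poisson interval of the highest Vector count ran from 9.90 to 27.2 and that of the lowest count in a FTO-labelled library from 17.8 to 39.3. Its rise of 1.15 on the log2 scale (SE 0.274, edgeR adjusted p 0.00184) was 2.21-fold with an interval of 1.47 to 3.32. Whether the rise of Socs1 reached 2-fold cannot be read from these counts.

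Socs2, best known as the brake on growth hormone signalling, moved the other way. It lay at 7.83, 7.18 and 8.31 CPM in Vector and at 5.19, 5.14 and 4.80 CPM in the FTO-labelled libraries. The groups were apart, with each Vector library above each FTO-labelled library. Socs2 fell to 0.648 of the Vector level (interval 0.530 to 0.791), a log2 fold change of -0.63 (SE 0.135, edgeR adjusted p 8.25e-04).

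Ratios of 2 genes counted in the same library do not depend on library scaling, and 10 such ratios were compared within the families. With 3 libraries against 3, the exact two-sided permutation test cannot go below 0.1, and after adjustment over the 10 ratios the smallest value was 0.111, so none could pass. The log2 ratio of Jak1 to Jak2 was 2.09, 2.04 and 2.01 in the Vector libraries. It was -1.05, -1.14 and -0.996 in the FTO-labelled libraries. Counts are not corrected for transcript length, so only the change in this ratio is read, not its sign. The ratio changed by -3.11 on the log2 scale (exact p = 0.1). The log2 ratio of Socs2 to Socs3 went from -0.62 ± 0.263 to -3.79 ± 0.148, a change of -3.17 (exact p = 0.1). That of Socs3 to Cish went from 0.59 ± 0.0398 to 1.59 ± 0.117, and each FTO-labelled library was above each Vector library (exact p = 0.1). Stat2 gained 2.79-fold on Stat3 and 5.36-fold on Stat6 in the same way, and Stat3 gained 1.92-fold on Stat6 (exact p = 0.1 for each). The ratio of Socs1 to Cish was the one whose groups overlapped, at -3.07 ± 0.490 and -3.48 ± 0.102 (exact p = 0.2).

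**Figure D3:**
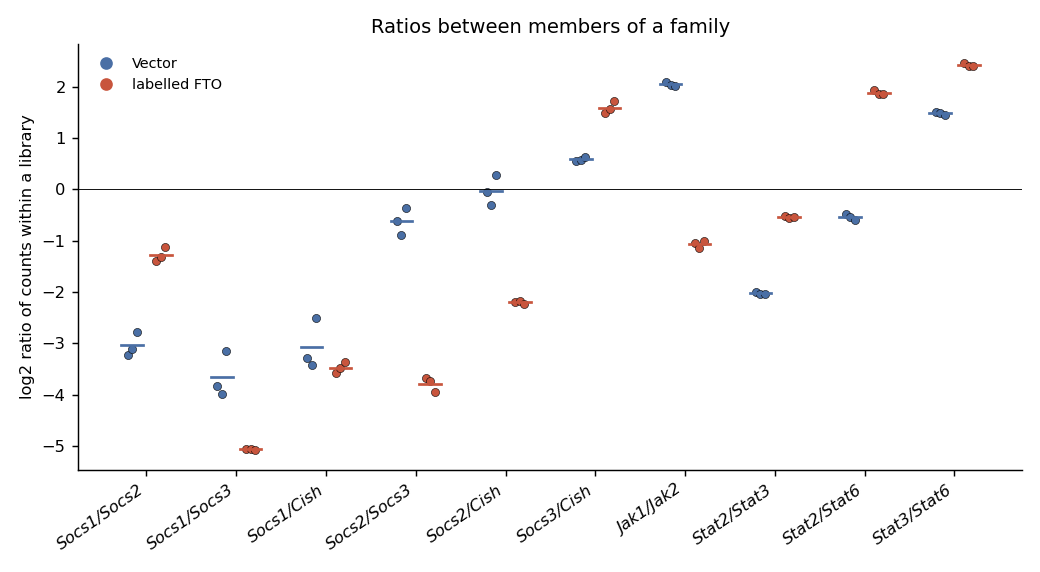
Log2 ratio of the counts of 2 family members within each library (points), with the mean of 3 libraries as a line, for Vector (blue) and the FTO-labelled libraries (red). The groups are apart for 9 of the 10 ratios, and the change is widest for Socs2 over Socs3 and Jak1 over Jak2. Counts are not corrected for transcript length, so the height of a ratio on the y axis does not rank the levels of 2 genes.

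The other genes of the same families were read next. Of 9 that were tested, 2 rose, 4 fell and 3 did not pass, with a median log2 fold change of -0.20. The 66.7% that passed is close to the 65.9% of all genes. Irf9 and Stat5a were the 2 that rose. Irf9, the DNA-binding partner of STAT2, went from 25.3 ± 1.75 to 96.9 ± 1.81 CPM, which is 3.83-fold (log2 1.94, SE 0.0620, edgeR adjusted p 3.54e-13). Its RefSeq window held a GAS match and a match with the 4-base spacer.

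The STAT5 genes, which are close relatives whose reads the counting could have split wrongly, went opposite ways. Stat5a rose from 16.1 ± 2.19 to 28.4 ± 1.22 CPM (1.76-fold, adjusted p 1.97e-06 in the edgeR test). Stat5b fell from 37.1 ± 3.15 to 28.5 ± 1.74 CPM (0.772 of the Vector level, adjusted p 6.64e-04). Among the remaining kinases, Jak3, the partner of the common gamma chain, fell from 29.4 ± 2.17 to 25.6 ± 0.412 CPM with an adjusted p of 0.0289. Jak3 did not pass with DESeq2, without Vector replicate 1 or 3, or without FTO replicate 1 (adjusted p from 0.019 to 0.133 over 13 alternatives). Tyk2 had a log2 fold change of -0.14 (SE 0.0727, adjusted p 0.0973), and without FTO replicate 3 it passed at 0.0351. Of the 4 JAK genes, Jak2 was therefore the one that was higher.

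Socs4 to Socs7, the members of the family that are less known for induction by cytokines, fell or did not pass. Socs4 fell from 19.9 ± 0.265 to 13.1 ± 0.724 CPM (log2 fold change -0.60, adjusted p 2.38e-05 in the edgeR test). Socs5 fell from 213 ± 2.43 to 175 ± 3.59 CPM (log2 fold change -0.28, adjusted p 1.88e-05). Socs6 had a log2 fold change of 0.14 (adjusted p 0.0981) and Socs7, with a mean of 45.7 counts, one of -0.43 (adjusted p 0.127). Without FTO replicate 3, Socs7 passed at -0.78 (adjusted p 0.0101, range 0.0101 to 0.366 over 13 alternatives).

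**Figure D4:**
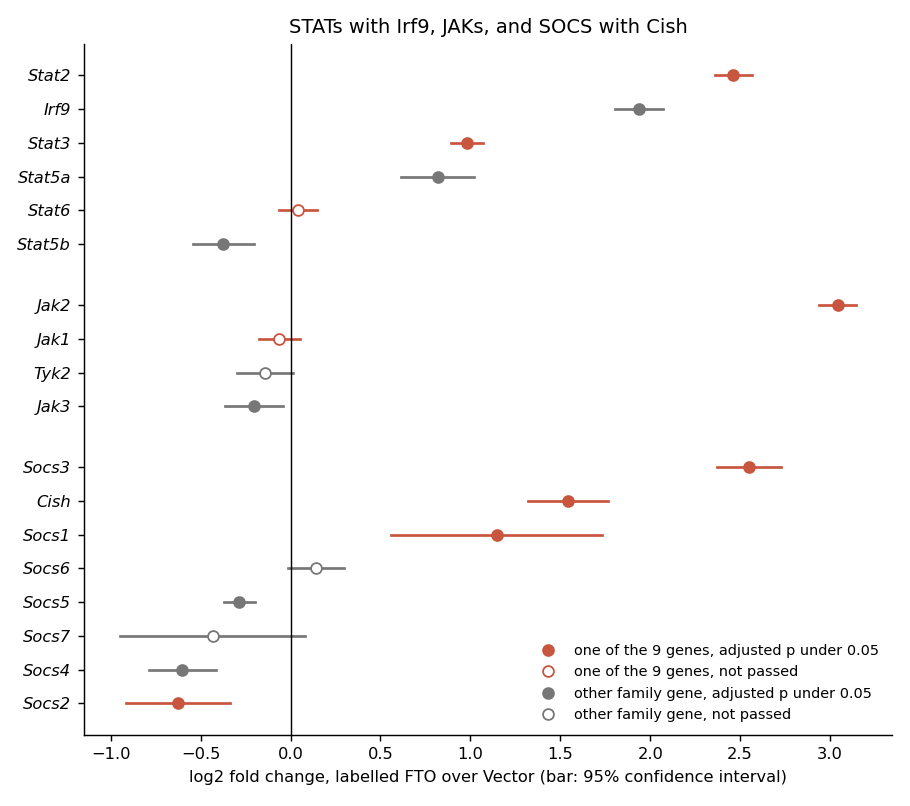
Log2 fold change with its 95% confidence interval for the STAT genes with Irf9 (top), the JAK genes (middle) and the SOCS genes with Cish (bottom). Red points are the 9 genes and grey points the other 9 family genes tested, filled where the adjusted p was under 0.05. Jak2 stands apart from the other 3 kinases, which lie between -0.20 and -0.06, and Socs3, Cish and Socs1 lie to the right of the other 5 SOCS genes.

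Upstream of the kinases, 16 of 31 ligand genes were tested, of which 10 rose, 4 fell and 2 did not pass, with a median log2 fold change of 1.05. In all 87.5% passed and 62.5% were higher, against 65.9% and 33.2% of all genes. Some ligands passed the filter on low counts only through the group where they were high. Csf3, Csf2, Il10 and Il7 did so through the FTO-labelled libraries, and Osm, Lep and Il12a through Vector. These shares therefore depend partly on the filter. Il6, the ligand that signals through gp130 to STAT3, rose from 2.01 ± 0.604 to 57.5 ± 5.54 CPM, 28.6-fold. Ebi3, a shared subunit of interleukin-27 and interleukin-35, rose from 2.92 ± 0.789 to 10.4 ± 0.916 CPM. Csf3, the granulocyte factor, had 0 counts in each Vector library against 90.6 ± 14.5 CPM under the FTO label, at least 413-fold higher when Vector is put at a floor of 3 counts per library. Il15 fell from 48.8 ± 2.76 to 33.6 ± 0.907 CPM. For these 4 genes the edgeR test gave adjusted p of 8.95e-14, 2.19e-07, 8.89e-13 and 3.12e-06. Ligands with a mean under 50 counts were left out of this naming. Among these Osm, Lep and Ctf1 fell further than Il15, and Csf2 and Il10 rose more than Ebi3. Some ligands were chosen for mention after their values were seen. Ifnb1 and Ifng, which encode interferon beta and gamma, had 0 counts in all 6 libraries, which allows up to 0.168 to 0.227 CPM each. Il4 had 1 count in all 6 libraries together, and Il13 had 0.

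Of 26 receptor genes tested, out of 37, 19 rose, 5 fell and 2 did not pass, with a median log2 fold change of 1.07. That is 92.3% passed and 73.1% higher, against the same 65.9% and 33.2%. Il2ra, Il20rb and Il15ra passed the filter on low counts only through the FTO-labelled libraries, and Il21r and Il27ra only through Vector. These shares too depend partly on the filter. Csf2rb, the shared beta chain of the receptors for granulocyte-macrophage factor, interleukin-3 and interleukin-5, rose 45.2-fold to 498 ± 24.7 CPM. Osmr, the oncostatin M receptor, rose from 139 ± 3.93 to 764 ± 77.7 CPM, 5.49-fold. Lifr, the receptor of leukemia inhibitory factor, rose from 16.9 ± 1.29 to 66.2 ± 20.4 CPM, 3.94-fold. In Lifr the FTO-labelled libraries ran from 45.3 (replicate 2) to 86.1 CPM (replicate 3), the same order as in the STAT and JAK genes. Csf2ra and Il6r, the ligand-binding chains for granulocyte-macrophage factor and interleukin-6, fell by 0.90 and 0.57 on the log2 scale. For these 5 genes the edgeR test gave adjusted p of 2.99e-18, 2.83e-14, 8.77e-08, 1.5e-06 and 3.79e-05. Il6st, which encodes gp130, rose 1.97-fold (edgeR adjusted p 3.63e-07) and was chosen for mention after its value was seen. Receptors with a mean under 50 counts were left out of the naming. Among these Il21r, Il27ra and Il10ra fell further than Csf2ra, and Il2ra, Il20rb and Il15ra rose more than Osmr.

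Of 22 other adaptors and inhibitors, 7 rose, 9 fell and 6 did not pass, with a median log2 fold change of -0.03. With 72.7% passed and 31.8% higher, the list was close to the 65.9% and 33.2% of all genes. Usp18, which is induced by interferon and blocks its receptor, rose from 1.12 ± 0.462 to 124 ± 11.6 CPM, 110-fold (adjusted p 2.32e-15 in the edgeR test). Ptpn1, a phosphatase that acts on JAK2, rose 3.50-fold (1.91e-13), and the adaptor Sh2b2 rose 2.39-fold (7.45e-09). Ptpn6 and Ptprc, phosphatases of blood cells, fell by 1.86 on the log2 scale each (1.85e-10 and 1.18e-11), and the ubiquitin ligase Cbl fell by 0.79 (0.00179). Macrophage markers fell in the same libraries, as given above, Ptprc being one of them.

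Downstream, the 14 interferon-stimulated genes listed as targets all rose, against 33.2% of all tested genes. Some, Rsad2, Oas1a and Cxcl10 among them, passed the filter on low counts only through the FTO-labelled libraries. The median log2 fold change of the 14 was 7.36. Against a floor of 3 counts Rsad2 was at least 573-fold higher. That leaves Rsad2 above the middle of the list, so the floor could not move the median. Rsad2 had 3, 2 and 3 counts in the Vector libraries and 2020, 1487 and 2210 under the FTO label. Ifit3 rose 657-fold and Mx2, which has close relatives, 520-fold, with adjusted p of 9.38e-19 and 7.16e-18 in the edgeR test, and Rsad2 had 6.58e-16. Of the 11 of these genes with a RefSeq window, 8 held an ISRE core, against 3.92% of all windows. The list was made of known interferon-stimulated genes, so this share describes the list and says nothing about these libraries. Of 13 STAT3 targets tested, out of 16, 11 rose and 2 fell, with a median of 1.48. That is 100% passed and 84.6% higher, against 65.9% and 33.2% of all tested genes. Lcn2 rose from 2.18 ± 0.751 to 3483 ± 335 CPM, Hp from 1.41 ± 0.246 to 423 ± 25.4 CPM and Lbp from 40.8 ± 0.698 to 710 ± 66.6 CPM, all 3 of them acute-phase proteins (adjusted p 2.32e-18, 2.32e-18 and 1.31e-16). Ccnd1 and Bcl2l1, which favour division and survival, fell by 0.91 and 0.20 on the log2 scale (4.32e-10 and 0.00224).

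The targets of STAT5 and STAT6 did not move one way. Of 4 STAT5 targets tested, out of 5 and apart from Cish and Socs2, 2 rose, 1 fell and 1 did not pass. That is 75% passed and 50% higher, against 65.9% and 33.2% of all tested genes. Igf1, 1 of the 2 that rose, overlapped between the groups. Its FTO replicate 2, at 90.3 CPM, was below each Vector library (90.6 to 98.4 CPM). Bcl6 rose from 28.5 ± 2.10 to 83.8 ± 4.51 CPM and Ccnd2 fell from 90.0 ± 0.996 to 27.2 ± 3.86 CPM, with adjusted p of 1.64e-11 and 3.04e-11 in the edgeR test. Of 4 STAT6 targets tested, out of 10, 2 rose and 2 fell, which is 100% passed and 50% higher against the same shares of all genes. Pparg, 1 of the 2 that fell, passed the filter on low counts only through Vector, so these shares depend partly on the filter. Arg1 rose 1.53-fold and Postn 1.44-fold, and Gata3 fell by 3.70 on the log2 scale (adjusted p 0.00119, 6.84e-08 and 1.04e-11). Many of the genes on these lists also answer to other factors, so a count over a list does not measure the activity of a STAT.

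**Figure D5:**
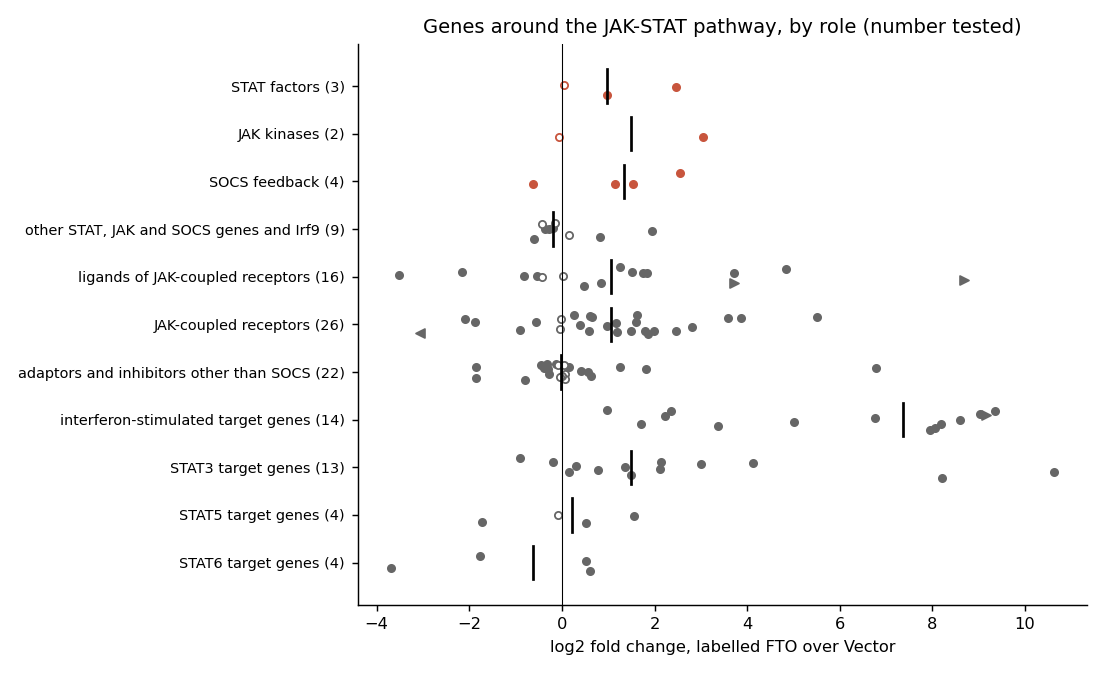
Log2 fold changes of the tested genes by role in the pathway, with the number tested in brackets and the list median as a black line. Filled points passed the adjusted threshold, open points did not, and triangles are genes at or under 3 counts in each library of a group, placed at their value against a floor of 3 counts. The interferon-stimulated targets all lie right of 0 with a median of 7.36, while the adaptors and inhibitors centre at -0.03.

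Over these lists together, 108 genes were tested beside the 9, and 94 passed, 67 higher and 27 lower. Their share of 87% stands beside the 65.9% of all tested genes, and their median log2 fold change was 0.62. Some of the 108 passed the filter on low counts only through the group where they were high. This share therefore depends partly on the filter. The lists were chosen with earlier results of these data known, so the share is a description and not a test of the pathway.

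The genes whose values over the 6 libraries lay nearest to each of the 9, by the root-mean-square difference (RMS) of centred log2 CPM among 9554 other genes with a mean of at least 100 counts, were listed as a description. Nearest to Jak2 were C1s, a complement protease (RMS 0.0388), and Gfpt2 (0.0564). Nearest to Stat2 were Sulf1 (0.0387) and C1qtnf1 (0.0388), and nearest to Stat3 were Rbm24 (0.0147) and Lamb1, a laminin chain (0.0234). Nearest to Socs3 were Htr2a, a serotonin receptor (0.0963), and Parp9 (0.0992), and nearest to Cish were Tiparp (0.0691) and Ptgfr, a prostaglandin receptor (0.0790). Socs1 lay nearest to Ccdc120 (0.0670) and Aifm2 (0.0778), and Socs2 to Tom1l1 (0.0369) and Dcakd (0.0400). Jak1 lay nearest to Man2a2 (0.0122) and Setd5 (0.0197), and Stat6 to Thrap3 (0.0139) and Nsf (0.0161). This measure takes in the difference between the groups together with the spread within them.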

How the data were processed

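For each of 6 RNA-seq libraries of NRCFs (3 Vector, 3 labelled FTO) the file deposited by the authors holds raw counts by gene symbol. The submitters' processing notes name Trimmomatic and the genome build rn6. Aligner, counting program, gene annotation and strand setting are not given in the sources used here. Groups came from the genotype labels. Transcript lengths were not used, so levels of different genes were not ranked.

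Genes were filtered with filterByExpr of edgeR (minimum count 10), which kept 12941 of 21857 symbols. Libraries were scaled by TMM (factors 0.995 to 1.01) and compared with the two-sided quasi-likelihood test of edgeR 4.0.16 in R 4.3.3, with Benjamini-Hochberg adjustment over all tested genes. The study's threshold (log2 fold change of at least 1 either way with unadjusted p under 0.05) was applied beside the adjusted one. The procedure was tested on simulated data. Each SE is the log2 fold change over the root of its F value. Poisson intervals and the floor of 3 counts (0.168 to 0.227 CPM) cover counting error only, as reads carry no molecular identifiers. In ratios 0.5 was added to each count.

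The 9 genes and the lists around them were chosen with earlier results of these data known. Named genes are the 9, Fto, the other tested family genes and, per list, up to 3 that rose most and up to 3 that fell most provided that the adjusted p was under 0.05, the groups did not overlap and the mean was at least 50 counts, and the 2 nearest genes to each of the 9. A few further genes were named after their values were seen. Of the 145 other pathway genes listed, 140 matched a symbol and 108 passed the filter and were tested. The other symbols have no test, and some further genes of the pathway are not reported here. Alternatives were DESeq2 1.42.0, limma-voom (limma 3.58.1), other scalings and filters, a replicate block and leaving out each library.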

Additional observations from a re-analysis of the deposited data

How the results depend on the processing

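Of the 9 genes, 7 passed in each of 13 alternatives except without FTO replicate 3, where Jak1 made it 8. The number that were higher was 6 throughout, and the number that were lower ran from 1 to 2 when each library was left out in turn. In those fits the log2 fold change of Jak1 ran from -0.12 to 0.0039, changing sign without FTO replicate 2, and the cause was not tested. The ranges over all alternatives were 2.43 to 2.50 for Stat2, 0.95 to 1.01 for Stat3, 3.01 to 3.07 for Jak2, 1.05 to 1.35 for Socs1, -0.68 to -0.58 for Socs2, 2.47 to 2.63 for Socs3 and 1.44 to 1.63 for Cish. Stat6 stayed between 0.0018 and 0.062 and did not pass. Fto stayed between 0.05 and 0.08 with adjusted p-values from 0.182 to 0.45. Over all genes 7795 (DESeq2) to 9009 (no filter) passed the adjusted threshold. The labels give both groups replicate numbers 1 to 3, but nothing pairs them. Deviations from the group means correlated at 0.0035, -0.079 and 0.035 for same-numbered libraries. With the replicate number as a block, 7 of the 9 genes, 93 of the other pathway genes and 8399 of all genes passed. The 10 ratios kept their direction with a pseudocount of 1 and without any single library. Of 47 gene results followed, 4 (Jak1, Jak3, Tyk2 and Socs7) changed in an alternative. Depth limits Socs1, with 11 to 39 counts a library.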
